A study of Mus musculus with 144 samples.

Results

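The genes followed here carry peptides to the cell surface on MHC class I molecules. They were 8 genes of the 55364 in the deposited table, taken by symbol: H2-K1, H2-D1, B2m, Tap1, Tap2, Tapbp, H2-T23 and Nlrc5. All 8 were found, once each. Each library was 1 sorted retinal cell that carried green fluorescence from an Iba1-EGFP transgene, from C57BL/6 mice aged 20 to 22 months. The wells came from eyes with no nerve injury (uncrushed, 54 wells), from eyes 2 days after optic nerve crush (36 wells) and from eyes 4 days after it (54 wells). They filled 3 plates of 48 wells, and all 3 groups shared the strain and the transgene. Groups were taken from the sample titles, and 18 wells titled day 4, all on plate 1, carried a day 2 treatment tag.

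Most nucleated cells show fragments of its own proteins at its surface on class I molecules, where CD8 T cells and natural killer cells read them. Proteasomes cut the proteins, the TAP transporter moves the peptides into the endoplasmic reticulum, tapasin and its helper chaperones load them, and the heavy chain leaves with its light chain, beta-2 microglobulin. Interferons raise the expression of most of these genes, and Nlrc5 is the transcriptional coactivator that is centred on class I genes. Resting microglia are known for low class I levels that climb in injury and ageing. Iba1 is made by microglia and by other cells of the myeloid lineage, so the transgene by itself does not separate them.

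Read depth split the wells into 88 deep wells, of 60079 to 8064516 reads, and 56 shallow wells, of 643 to 14205 reads. Values below are from the deep wells, which numbered 39 uncrushed, 25 at day 2 and 24 at day 4. Only 2 deep day 4 wells lay on plate 3, against 12 on plate 1 and 10 on plate 2. The median deep well held reads of 3161 genes in the uncrushed group, 3777 at day 2 and 4992 at day 4. The microglial label was checked on 11 markers: all 11 were found in every group, and 3 or more were found in 37 of 39 uncrushed, 21 of 25 day 2 and 22 of 24 day 4 deep wells. Of 10 neutrophil markers, 3 or more were found in 1 uncrushed, 6 day 2 and 3 day 4 deep wells, while Camp, Ngp and Ltf were at 0 throughout. Rod photoreceptor markers reached 3 of 13 in 4, 1 and 1 deep wells of the uncrushed, day 2 and day 4 groups. The labels name no animal, so each group counts as 1 sample. Spreads are SD over wells. The 95% intervals of shares are exact (Clopper-Pearson) and cover counting error alone. No test was made.

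The classical heavy chains are near copies of each other, which bears on how their reads can be told apart. The coding sequences of H2-K1 and H2-D1 (GENCODE M21) were identical at 91.5% of 1077 aligned bases, and their longest shared run was 91 bases. That run lies at bases 738 to 828 of the H2-K1 coding sequence, and a read inside it belongs to either gene:
shared run: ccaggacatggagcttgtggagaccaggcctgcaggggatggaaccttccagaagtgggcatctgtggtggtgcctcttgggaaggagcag
A stretch of 60 coding bases with 15 differences shows where reads can be assigned. It starts at coding base 492 of H2-K1 and 501 of H2-D1, and capitals mark the bases that differ:
H2-K1: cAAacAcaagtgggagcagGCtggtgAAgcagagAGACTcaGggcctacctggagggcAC
H2-D1: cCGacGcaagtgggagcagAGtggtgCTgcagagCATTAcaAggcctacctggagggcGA
Of all 50-base windows of the H2-K1 coding sequence, 10.1% occurred exactly in H2-D1, and of its 100-base windows 0% did. Exonic bases outside the coding sequences were not compared. H2-T23 was 81.1% identical to H2-D1 and shared a run of 145 bases with it.

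The promoters of both classical genes and of B2m are shown because their known elements are the ones through which interferon, NF-kappa B and Nlrc5 act. The sequences are the 250 bases before the start, 5′ to 3′ on the gene's strand, from RefSeq on GRCm38.p6. H2-K1 is chr17:34000348-34000597 on the minus strand, H2-D1 chr17:35262844-35263093 on the plus strand and B2m chr2:122147437-122147686 on the plus strand. Capitals mark the letters searched:
H2-K1 promoter: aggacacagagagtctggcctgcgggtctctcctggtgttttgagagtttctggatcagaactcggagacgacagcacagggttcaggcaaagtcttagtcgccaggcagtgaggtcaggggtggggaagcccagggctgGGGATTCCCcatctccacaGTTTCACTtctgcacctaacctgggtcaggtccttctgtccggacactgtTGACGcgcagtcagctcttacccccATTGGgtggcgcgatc
H2-D1 promoter: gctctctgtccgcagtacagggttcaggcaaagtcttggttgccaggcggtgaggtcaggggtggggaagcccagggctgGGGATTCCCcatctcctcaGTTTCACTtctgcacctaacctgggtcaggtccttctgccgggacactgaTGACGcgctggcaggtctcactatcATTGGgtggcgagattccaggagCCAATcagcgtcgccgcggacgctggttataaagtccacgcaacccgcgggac
B2m promoter: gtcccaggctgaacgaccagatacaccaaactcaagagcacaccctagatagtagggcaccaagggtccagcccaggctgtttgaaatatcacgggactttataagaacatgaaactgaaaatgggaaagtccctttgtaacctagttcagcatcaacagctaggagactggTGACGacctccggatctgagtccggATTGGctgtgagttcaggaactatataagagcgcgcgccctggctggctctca
Both strands were searched for 4 letter strings. The kappa B string GGGATTCCC, which reads GGGAATCCC on the other strand, was in 99 of 32817 RefSeq promoters (0.302%). Counted back from the start, H2-K1 held it at -110 to -102 and H2-D1 at -170 to -162. RefSeq lists a second H2-K1 start, from which the string lay at -124 to -116, and the promoter shown is that of the first. The interferon-response string AGTGAAAC, which reads GTTTCACT on the other strand, was in 0.768% of promoters and followed the kappa B string in both genes. Neither of these strings was found in the B2m promoter. The string TGACG was in 17.7% of promoters and the inverted CCAAT box, with the letters ATTGG, in 33.8%, both strands counted, and both genes and B2m held both. No search string overlaps another here, and a match describes letters only. Promoters were found for 6 of the 8 genes.

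**Figure D1:**
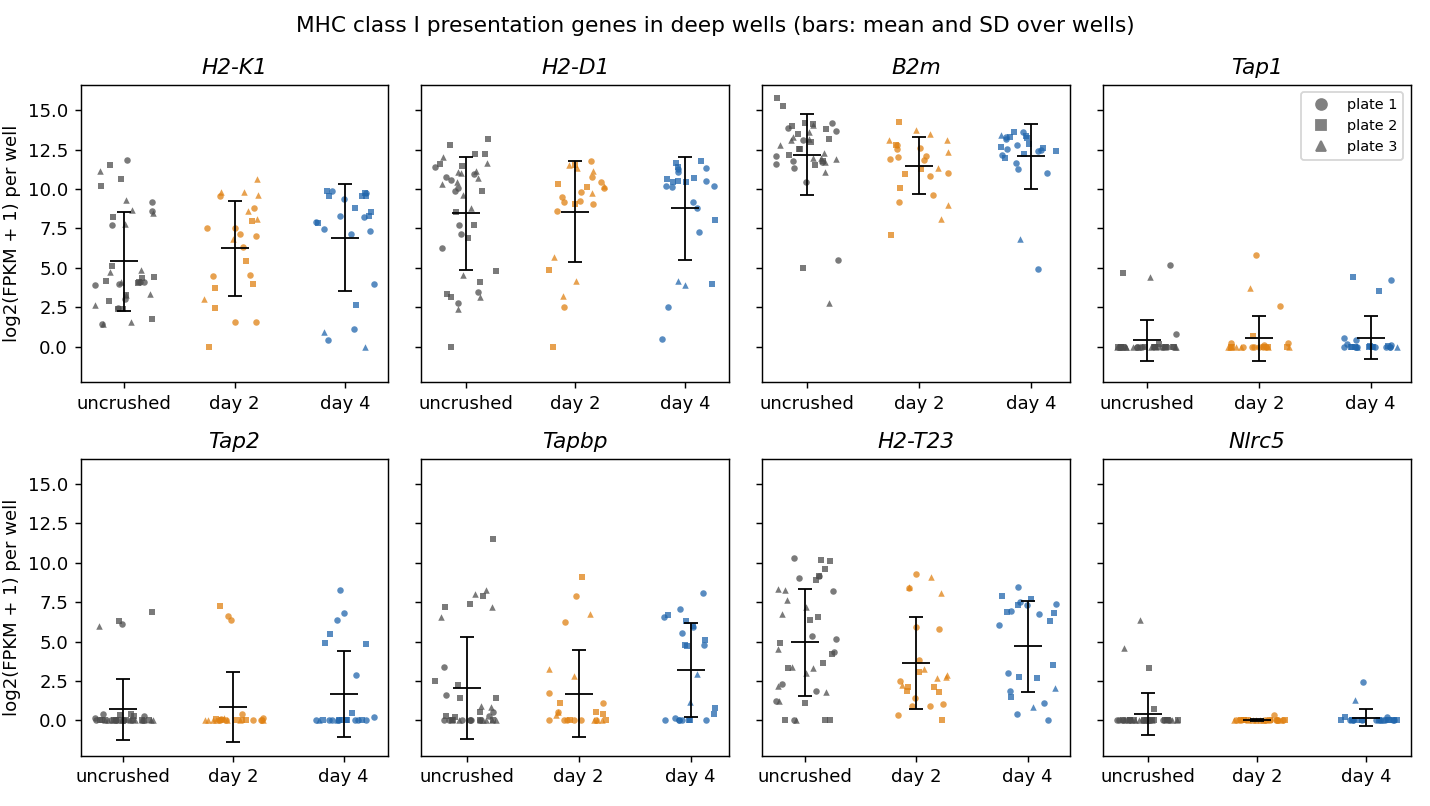
FPKM of each of the 8 genes in every deep well on a log scale (log2 of FPKM + 1), for uncrushed (n = 39), day 2 (n = 25) and day 4 (n = 24) wells, with the mean and SD of each group. The groups overlap for all 8 genes, B2m sits highest, and Tap1, Tap2 and Nlrc5 have a median of 0 in every group.

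B2m, the light chain that every class I molecule needs, was the most abundant of the 8 genes per length. The gene (ENSMUSG00000060802, chr2:122147686-122153083, plus strand, GRCm38) had 10 or more reads in 37 of 39 uncrushed, 25 of 25 day 2 and 23 of 24 day 4 deep wells. Its lowest, median and highest FPKM, the deposited read density per gene length and library size, were 5.81, 6046 and 54656 in uncrushed wells, 136, 3859 and 19115 at day 2, and 28.7, 6077 and 12652 at day 4. The 3 ranges overlapped, and the highest B2m wells were uncrushed. The mean log2(FPKM + 1) was 12.18 ± 2.57 in uncrushed wells, 11.48 ± 1.81 at day 2 and 12.07 ± 2.05 at day 4. The difference of day 4 from uncrushed was -0.11, with 0.02, 0.02 and -1.69 on plates 1, 2 and 3. Leaving out 1 well at a time moved it between -0.35 and 0.21, so its sign is set by single wells.

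H2-D1, one of the classical heavy chains that hold the peptide, came next. The gene (ENSMUSG00000073411, chr17:35262730-35267499, plus strand) was at 0, 928 and 9100 FPKM in uncrushed wells (lowest, median, highest), 0, 858 and 3505 at day 2, and 0.411, 1265 and 3538 at day 4. Each group had wells of very high H2-D1 and wells near 0, so the groups overlapped over nearly their whole range. Mean log2(FPKM + 1) was 8.45 ± 3.56, 8.55 ± 3.20 and 8.78 ± 3.27 in uncrushed, day 2 and day 4 wells. The difference of day 4 from uncrushed was 0.33, far inside the SD over wells, and the plates gave 0.32, 1.83 and -4.96.

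For H2-K1, the other classical heavy chain of this strain, the crush groups differed most from uncrushed wells in the share at a high level. The gene (ENSMUSG00000061232, chr17:33996017-34000347, minus strand) had a lowest, median and highest FPKM of 1.70, 16.5 and 3727 in uncrushed wells, 0, 130 and 1605 at day 2, and 0, 304 and 945 at day 4. The ranges overlapped, and the highest single wells were again uncrushed, while the middle of the day 4 group lay above most uncrushed wells. Mean log2(FPKM + 1) was 6.92 ± 3.37 at day 4 and 5.41 ± 3.15 in uncrushed wells, a difference of 1.50. It was 6.25 ± 3.01 at day 2, which is 0.83 above the uncrushed wells. The direction at day 4 hung on the scale: the log2 ratio of mean FPKM was -0.0074, and 0.37 without the uncrushed plate 1 well at 3727 FPKM. At day 2 that ratio was -0.40, against the 0.83 of the log means.

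A level of 50 FPKM or more was found for H2-K1 in 13 of 39 uncrushed wells (33.3%, interval 19.1 to 50.2%). It was found in 15 of 25 day 2 wells (60%, 38.7 to 78.9%) and in 18 of 24 day 4 wells (75%, 53.3 to 90.2%). These intervals count wells of groups that are each 1 sample, so whether they overlap is no test of a group difference. Those of the day 4 and uncrushed wells did not overlap, whereas that of day 2 overlapped both. That gap rested on the titles: with the plate 1 day 4 wells placed by their day 2 tag, the shares were 24 of 37 at day 2 and 9 of 12 at day 4 (75%, 42.8 to 94.5%), and the interval at day 4 overlapped that of uncrushed wells. Against all 5798 genes that passed the filter (10 or more reads in at least 10% of deep wells), the gap of 41.7 percentage points between day 4 and uncrushed wells lay at percentile 97.9, and 16.5% of those genes gained 20 points or more. At day 2 the gap of 26.7 points lay at percentile 97.5, and 6.92% of genes gained 20 points or more. The comparison of shares with all genes was added after the values were seen. H2-D1 reached this level in 29 uncrushed, 20 day 2 and 19 day 4 wells, which is between 74.4% and 80% of each group. Without the wells of 3 or more neutrophil or rod markers, H2-K1 reached it in 12 of 34 uncrushed (35.3%, 19.7 to 53.5%), 11 of 19 day 2 (57.9%, 33.5 to 79.7%) and 16 of 21 day 4 wells (76.2%, 52.8 to 91.8%), and the intervals of day 4 and uncrushed wells then just overlapped.

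The count of wells with any sizeable H2-K1 signal was much less separated: 10 or more reads were found in 28 uncrushed (71.8%), 21 day 2 (84%) and 19 day 4 wells (79.2%). By that rule the gain at day 4 was 7.37 points, at percentile 16.1 of all genes. The gain at day 2 by that rule was 12.2 points, at percentile 64.0. A gene that starts at 71.8% of wells has less room to gain than one that starts low. The median day 4 gain of all genes was 19.6 points at 10 or more reads and 4.17 points at 50 FPKM or more. The ranks by these rules thus depend on the starting share, whose part was not tested. In 53 deep wells with 1000 or more H2-D1 reads, H2-K1 reads were 0.424% to 141% of H2-D1 reads. In 19 of these wells the ratio was under 2%, in 3 it lay between 2 and 10%, and the median was 14.2%. No such well was without H2-K1 reads, so the table gave a few reads of H2-K1 wherever H2-D1 was high.

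The recovered read numbers of the heavy chains were often not whole. Of values under 100 reads, 100% were whole numbers within 0.01 for B2m (7 values) and Nlrc5 (8 values). The share was 25% for H2-K1 (40 values), 20% for H2-D1 (20 values) and 17.4% for H2-T23 (46 values). It was 78.8% for Tapbp (33 values), 33.3% for Tap2 (15 values), 56.3% for Tap1 (16 values) and 36.2% over all genes of the deep wells. Values that are not whole were thus not particular to the heavy chains. How the authors divided a read among genes is not given in the sources used here, and what part of the low H2-K1 signal came from shared reads was not tested. A rule added after these ratios were seen counts a heavy chain only at 10 or more reads and at 5% or more of the other chain's reads. By it H2-K1 was held by 14 of 39 uncrushed wells (35.9%, 21.2 to 52.8%), 16 of 25 day 2 wells (64%, 42.5 to 82.0%) and 18 of 24 day 4 wells (75%, 53.3 to 90.2%). H2-D1 was held by 32, 22 and 20 wells of the same groups, over 80% of each.

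**Figure D2:**
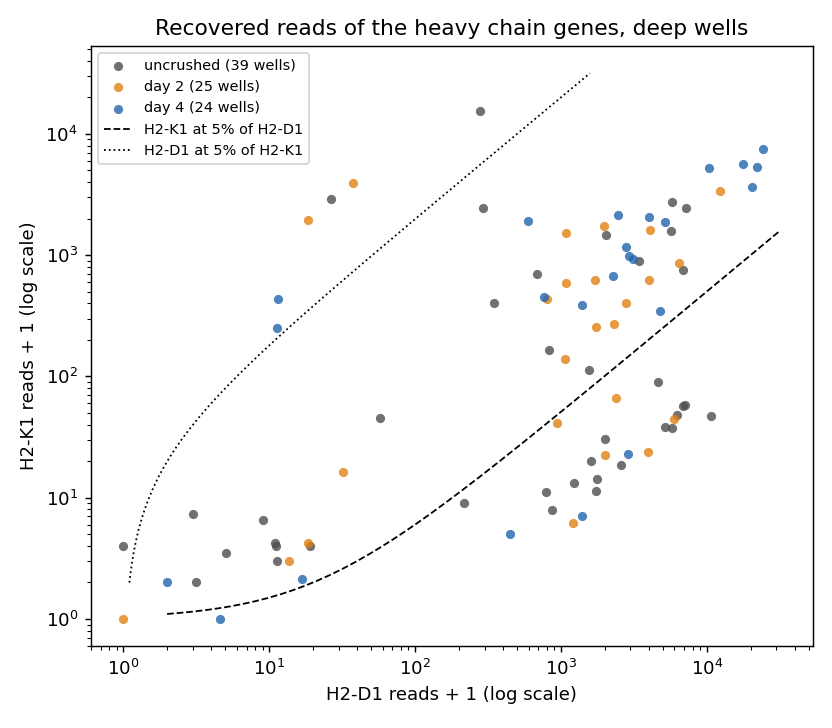
Reads of H2-K1 against reads of H2-D1 (each plus 1) in each deep well, on log axes, coloured by group (uncrushed, day 2, day 4), with lines where either gene is at 5% of the other. Among wells with 1000 or more H2-D1 reads, 19 of 53 lie under 2% of the H2-D1 reads and 3 lie between 2 and 10%.

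Read this way, most wells fell into a few combinations of the classical chains. Wells with both chains were 12 of 39 uncrushed, 14 of 25 day 2 and 16 of 24 day 4 wells. Wells with H2-D1 alone were 20 uncrushed, 8 at day 2 and 4 at day 4, and H2-K1 alone was seen in 2 wells of each group. The same wells differed in how many genes had reads. Wells with both chains held a median of 4127.5 genes in uncrushed, 5633 in day 2 and 7807 in day 4 wells, and wells with H2-D1 alone held 2836.5, 3117.5 and 3109.5. The part that the number of genes per well had in the groups' difference was not tested. In a well of 1 cell, fewer transcripts and poorer capture cannot be told apart.

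The plates did not give 1 answer. Uncrushed wells held H2-K1 at the 5% ratio in 4 of 11, 5 of 15 and 5 of 13 wells of plates 1, 2 and 3. Day 4 wells held it in 9 of 12 and 9 of 10 wells of plates 1 and 2, and in 0 of 2 on plate 3. Day 2 wells held it in 8 of 11, 1 of 6 and 7 of 8. The uncrushed share was thus alike on the 3 plates, day 4 was higher on both plates with 10 or more deep wells, and day 2 was higher on plates 1 and 3 and lower on plate 2. In the mean, H2-K1 was higher at day 4 than in uncrushed wells by 1.24 on plate 1 and 3.13 on plate 2, and differed by -5.03 on plate 3, and the mean of the 3 plates was -0.22. The 2 plate 3 wells at day 4 had a median of 3.5 of 11 microglia markers, and without them the overall difference was 2.09. Plate rows were given over to single groups, so row and group cannot be told apart.

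**Figure D3:**
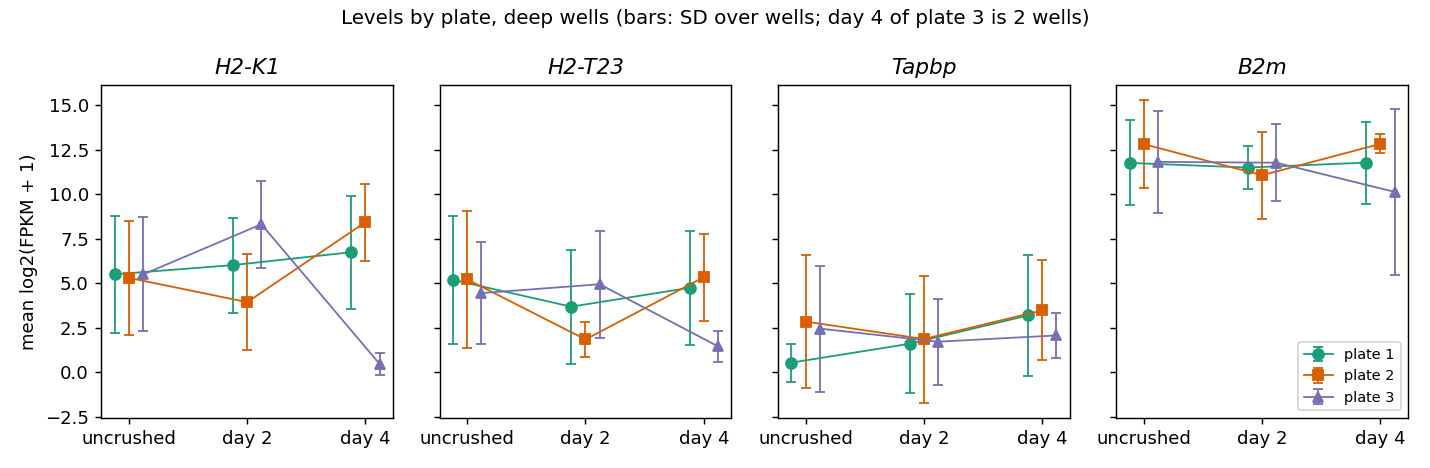
Mean log2(FPKM + 1) of H2-K1, H2-T23, Tapbp and B2m in the deep wells of each plate, for uncrushed, day 2 and day 4 wells in that order, with bars for the SD over wells. The uncrushed means of H2-K1 lie together on the 3 plates, while at day 4 plate 3, with 2 wells, lies far below plates 1 and 2.

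Tap1 and Tap2 form the transporter that carries peptides into the endoplasmic reticulum, and neither had a median above 0 in any group. Tap1 (ENSMUSG00000037321, chr17:34187553-34197225, plus strand) had 10 or more reads in 3 wells of each group, and its highest FPKM was 35.8 in uncrushed, 56.3 in day 2 and 20.5 in day 4 wells. Tap2 (ENSMUSG00000024339, chr17:34203527-34216321, plus strand) had 10 or more reads in 4 of 39 uncrushed wells (10.3%, 2.87 to 24.2%), 3 of 25 day 2 wells (12%, 2.55 to 31.2%) and 7 of 24 day 4 wells (29.2%, 12.6 to 51.1%). Its highest FPKM was 116, 154 and 303 in those groups. The intervals for Tap2 overlapped, and its day 4 share was the larger on plates 1 and 2 (4 of 12 and 3 of 10 wells, against 1 of 11 and 2 of 15 uncrushed wells). The gain of 18.9 points lay at percentile 49.4 of all genes, whose median gain was 19.6 points. Both genes were found in 3 wells together, of 9 with Tap1 and 14 with Tap2. Tap1 shares 212 exonic bases with Psmb9 on the other strand and Tap2 shares exonic bases with 2 neighbouring transcripts, so a part of their reads may belong to those.

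Tapbp encodes tapasin, which ties the empty heavy chain to the transporter until a peptide fits. The gene (ENSMUSG00000024308, chr17:33915899-33929292, plus strand) had a lowest, median and highest FPKM of 0, 0.195 and 2905 in uncrushed wells, 0, 0.343 and 547 at day 2, and 0, 16 and 275 at day 4. Most uncrushed and day 2 wells were at or near 0, and the most extreme well was uncrushed. It had 10 or more reads in 12 of 24 day 4 wells (50%, 29.1 to 70.9%), against 9 of 39 uncrushed wells (23.1%, 11.1 to 39.3%). At day 2 it had them in 5 of 25 wells (20%, 6.83 to 40.7%). Its exons share 904 bases with Gm19412 on the other strand and 149 with Zbtb22, so a part of its reads may belong to those. On plates 1 and 2, 6 of 12 and 6 of 10 day 4 wells held it, against 1 of 11 and 4 of 15 uncrushed wells, and on plate 3 it was 0 of 2 against 4 of 13.

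The mean log2(FPKM + 1) of Tapbp was 3.20 ± 2.96 at day 4 and 2.05 ± 3.22 in uncrushed wells, a difference of 1.15. The gain in share, 26.9 points, lay at percentile 72.3 of all genes, of which 46.9% gained 20 points or more. The higher share of Tapbp at day 4 than in uncrushed wells was thus a gain that a large part of the filtered genes shared. From day 2 to day 4 its gain was 30 points, at percentile 95.3, where the median gain of all filtered genes was 10 points. Where Tapbp was found, its median level was lower at day 4, at 60.1 FPKM, than in uncrushed wells, at 162 FPKM. The log2 ratio of mean FPKM turned to -1.42, and without the uncrushed plate 2 well at 2905 FPKM it was 0.15. Of the 7 day 4 wells with Tap2, 5 also held Tapbp. None of Tap1, Tap2 and Tapbp was found in 26 of 39 uncrushed, 16 of 25 day 2 and 10 of 24 day 4 wells.

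**Figure D4:**
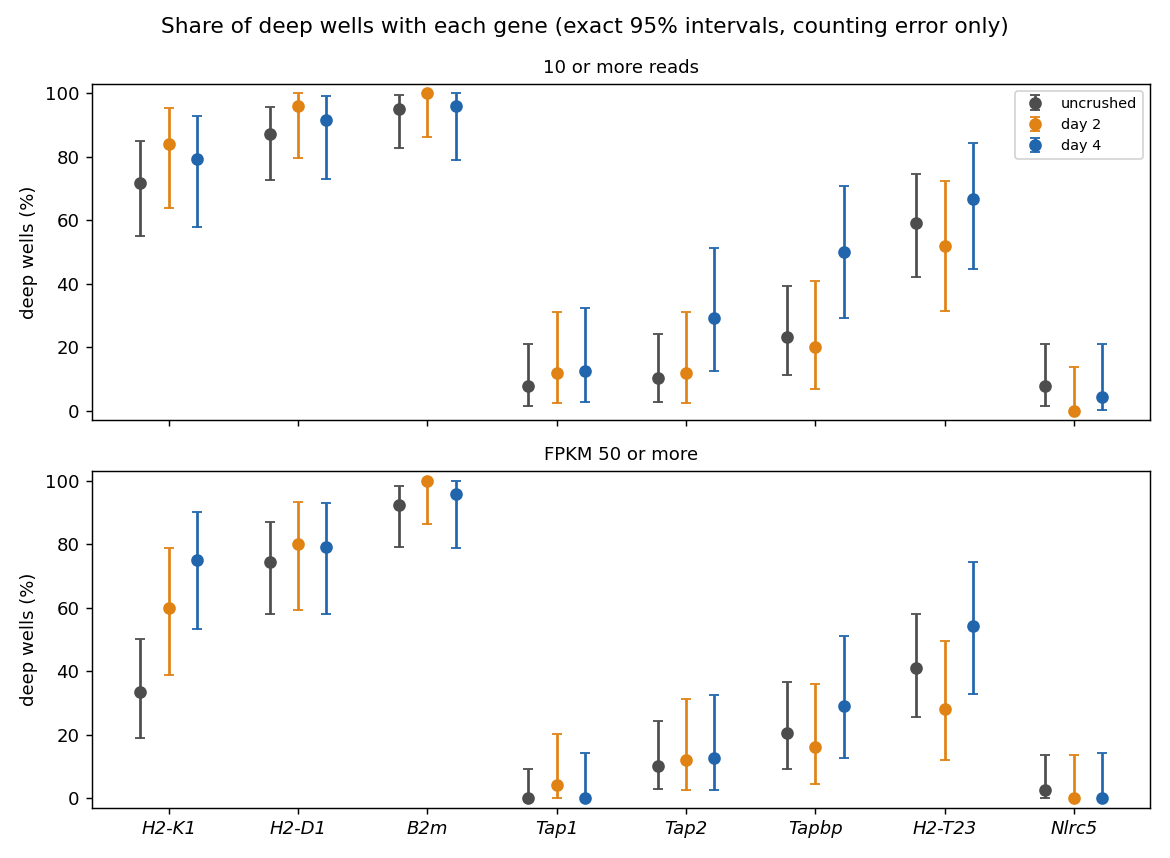
Share of deep wells with each gene, in percent, at 10 or more reads (upper panel) and at 50 FPKM or more (lower panel), by group in the order uncrushed, day 2, day 4, with exact 95% intervals. H2-K1 is at 75% at day 4 and 33.3% in uncrushed wells in the lower panel only, while in the upper panel Tapbp stands at 50% at day 4 and 23.1% in uncrushed wells.

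H2-T23 encodes Qa-1, a non-classical heavy chain that shows leader peptides of other class I molecules to natural killer cells. The gene (ENSMUSG00000067212, chr17:36029773-36032855, minus strand) had a lowest, median and highest FPKM of 0, 21.9 and 1259 in uncrushed wells, 0, 5.47 and 628 at day 2, and 0, 72.5 and 358 at day 4. The ranges overlapped, with the day 2 wells lowest in the middle of the range. Mean log2(FPKM + 1) was 3.64 ± 2.92 at day 2 and 4.94 ± 3.40 in uncrushed wells, a difference of -1.31. It was -1.51 on plate 1, -3.38 on plate 2 and 0.50 on plate 3. This was the only value among the 7 filtered genes that was lower by 1 or more at day 2. At day 4 the mean was 4.71 ± 2.89, lower than in uncrushed wells by less than the SD. By the share at 50 FPKM or more, day 4 was higher: 54.17%, against 41.03% in uncrushed wells and 28% at day 2. The gain from uncrushed wells was 13.1 points, at percentile 74.4 of all genes. The gain from day 2 was 26.2 points, at percentile 96.96. At 10 or more reads these gains were 7.69 points, at percentile 17.1, and 14.7 points, at percentile 64.5.

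The day 2 values of H2-T23 differed by plate: it had 10 or more reads in 6 of 11, 0 of 6 and 7 of 8 day 2 wells of plates 1, 2 and 3. The uncrushed wells were at 7 of 11, 8 of 15 and 8 of 13. At day 4 the mean of H2-T23 differed from uncrushed wells by -0.45, 0.12 and -2.99 on plates 1, 2 and 3, with 2 day 4 wells on plate 3. Its reads were under 2% of the H2-D1 reads in 28 of 53 wells, so the caution on shared reads holds for its low values too.

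Nlrc5, the coactivator of class I genes, was scarcely seen. The gene (ENSMUSG00000074151, chr8:94434356-94527272, plus strand) had 10 or more reads in 3 of 39 uncrushed, 0 of 25 day 2 and 1 of 24 day 4 wells. A count of 0 in 25 wells allows a share of up to 12% at 3 counts of the total, and the exact interval reaches 13.7%. Its highest FPKM was 82.1 in uncrushed, 0.248 in day 2 and 4.37 in day 4 wells, and it did not pass the filter. Nothing about its course with time was detectable at this depth.

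In the order of their levels per length in uncrushed wells, B2m stood above H2-D1, followed by H2-K1 and H2-T23, then Tapbp, and then Tap2, Tap1 and Nlrc5 near 0. The mean log2(FPKM + 1) of H2-K1 and H2-T23, 5.41 and 4.94, differed by less than their SDs over wells, as did those of Tap2, Tap1 and Nlrc5. The median deep well held 4 of the 8 genes in uncrushed wells, 4 at day 2 and 4.5 at day 4. A single well, an uncrushed one, held all 8.

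A gene is counted here as higher or lower where its mean log2(FPKM + 1) differs by 1 or more. Between day 4 and uncrushed wells, 43.6% of the 5798 genes were higher and 1.05% lower. Of the 7 members that passed the filter, 2 were higher (H2-K1 and Tapbp) and 0 lower, and their median difference of 0.33 lay under the 0.85 of all genes. Between day 2 and uncrushed wells, 21.4% of genes were higher and 1.66% lower, with 0 members higher and 1 lower, a member median of 0.10 and a median of all genes of 0.40. Between day 4 and day 2, 22.7% of genes were higher and 2.24% lower, with 2 members higher (Tapbp at 1.51 and H2-T23 at 1.07) and 0 lower, a member median of 0.67 and a median of all genes of 0.43. Relative to the median of all genes, 0 members were higher and H2-T23 was lower at day 4, and B2m and H2-T23 were lower at day 2, against uncrushed wells. The median number of genes per deep well was 3161 in uncrushed, 3777 in day 2 and 4992 in day 4 wells. The part of that number in the shift of all genes and in these values was not tested. Against uncrushed wells, B2m lay at percentile 10.6 of all genes at day 4 and at percentile 3.97 at day 2, and H2-T23 lay at percentile 7.8 at day 4 and at percentile 0.638 at day 2. Tapbp lay at percentile 90.6 between day 4 and day 2.

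The proteasome and loading-helper lists, by contrast, had medians above the median of all genes. The counts below stand beside the 43.6% of all genes that were higher at day 4. Of 5 peptide-loading helpers, 4 were higher at day 4, with a median difference of 1.33. Calreticulin (Calr), the chaperone of the loading complex, was higher by 3.22 at day 4 and by 1.54 at day 2. Its partner Pdia3 was higher by 2.92 and 2.12, and the peptide editor Tapbpl by 1.11 and 1.26. All 5 immunoproteasome and activator genes were higher at day 4, with a median of 1.85. Psmb8, an interferon-inducible catalytic subunit, was higher by 2.76 at day 4 and 1.57 at day 2, and the activator subunit Psme1 by 2.53 and 1.08.

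The constitutive catalytic subunits differed at least as much: all 3 were higher at day 4, with a median of 2.98, and Psmb6 was higher by 3.79. The immunoproteasome list was therefore not set apart from its constitutive counterpart. Of 17 other class I heavy chains, 13 passed the filter and 3 were higher at day 4, with a median of 0.49. Among all genes 43.6% were higher, and the median was 0.85. H2-M3, which presents formylated peptides, was higher by 1.79, and Hfe, which binds the transferrin receptor, by 1.40. H2-Q7 was higher by 1.07, but Q6 and Q7 coding sequences are 95.4% identical and their reads cannot be cleanly divided. On plate 3, with its 2 deep day 4 wells, 39 of the 41 genes of all 7 further lists that passed the filter lay below 0.

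Signalling genes for class I showed fewer differences, against 43.6% of all genes higher at day 4. Of 14 regulators, 8 passed the filter and 1 was higher at day 4: Irf9, the DNA-binding part of the interferon-activated complex, by 1.03, against 1.20 at day 2. Irf8 was at 0.97. Of 4 interferon receptor genes, 3 passed. Ifngr2 was higher by 2.35 at day 4 and 1.41 at day 2, while Ifngr1 was at 0.18 at day 4 and 1.83 at day 2. Class II genes, which present to CD4 T cells, had 4 of 7 past the filter and a median of 0.90 at day 4, near the 0.85 of all genes, and of -0.35 at day 2. H2-DMb1 was at 1.15 at day 4 and -0.88 at day 2, H2-DMa at 0.86 and -0.71, and the invariant chain Cd74 at 0.94 and 0.10. The class II master regulator Ciita was at 0 in every deep well.

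**Figure D5:**
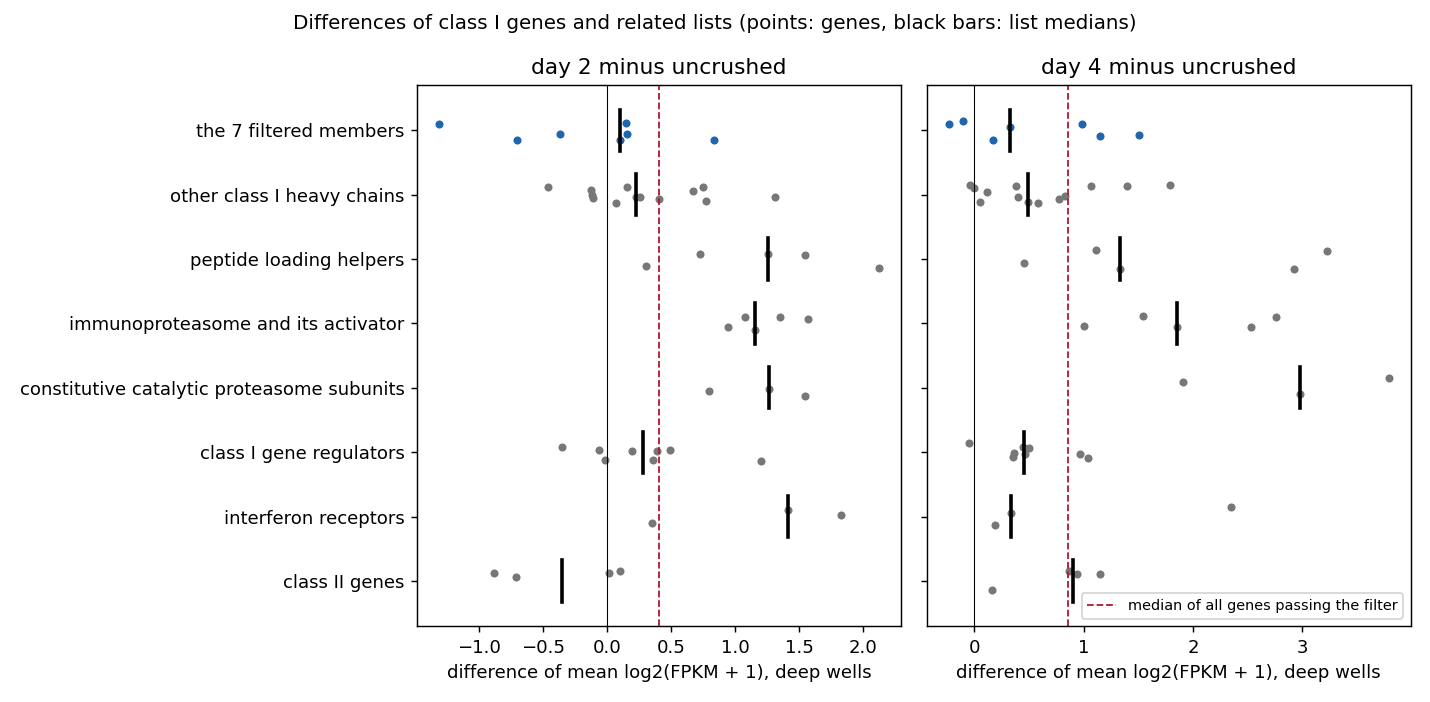
Difference in mean log2(FPKM + 1) from uncrushed deep wells for the members and for the other lists of the presentation pathway at day 4 and day 2, 1 point per gene that passed the filter, with a black bar for each list's median and a dashed line for the median of all 5798 genes. At day 4 the member median is 0.33, that of the constitutive proteasome subunits is 2.98 and that of all genes is 0.85.

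The genes whose levels ran most like each member over the 88 deep wells were named by Spearman's rho among 240 candidate genes, as a description over wells that share plates and depth. For H2-D1 they were H2-Q1 at 0.97, H2-Q4 at 0.86 and H2-Q10 at 0.85. These are heavy chains too: the H2-Q1 coding sequence is 88.2% identical to that of H2-D1 and shares a run of 184 bases, and H2-Q4 and H2-Q10 had medians of 0.735% and 0.795% of the H2-D1 reads. For H2-K1 they were H2-Q4 at 0.54, H2-Q7 at 0.53 and H2-Q6 at 0.48. B2m ran with C1qb at 0.60 and Cst3 at 0.48, abundant transcripts of microglia. H2-T23 ran with Psap at 0.48. Within the members, H2-K1 and H2-T23 were at 0.50, Tap1 and Tap2 at 0.46 and H2-K1 and H2-D1 at 0.40. The rho with genes per well was 0.55 for Tap2, 0.52 for Tap1 and 0.44 for H2-K1, against -0.14 for B2m.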

How the data were processed

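The deposited table holds FPKM values per gene for 144 wells, which the authors computed; its gene lengths are in the same table. Per the submitters' processing notes, the tools named were Trim Galore 0.4.4, Trimmomatic 0.36, cutadapt 1.16, STAR 2.7.2b and featureCounts 1.6.1, with the builds GRCm38.p6 and mm10. How multi-mapped reads were counted is not given in the sources used here.

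Reads per well and gene were recovered from FPKM times length, with the most frequent product taken as 1 read, and values under 100 reads within 0.01 of a whole number were set to it. Deep wells have 50000 or more reads. Shares count wells with 10 or more reads, or with 50 FPKM or more. Means use log2(FPKM + 1), which understates differences of low genes. The filter was 10 or more reads in 10% of deep wells, and differences of 1 or more were counted. As each group is 1 sample, no test, p-value or standard error was computed. The code was tested on simulated data. Named list genes are up to 4 per list, by the size of the day 4 difference, and 1 of them is not reported here. Coding sequences came from GENCODE M21 and promoters from RefSeq. The work used Python 3.11.15 with biopython 1.88 for alignment, pandas 2.3.3 and numpy 2.4.6 for tables, matplotlib 3.10.9 for plots and scipy 1.17.1 for intervals. The members and lists were chosen with earlier results of these data known. Alternatives were other pseudocounts, filters, depths, plates, marker-selected wells and summaries.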

Additional observations from a re-analysis of the deposited data

How the results depend on the processing

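The median difference of the members ranged over the alternatives from -0.53 to 1.02 for day 4 against uncrushed, from -0.57 to 0.18 for day 2 against uncrushed and from -0.07 to 1.06 for day 4 against day 2, so its sign was not stable. It was -0.34 for the log2 ratio of mean FPKM and -0.22 for the within-plate mean at day 4. The count of members past the fold depended on the summary. For day 4 against uncrushed, 2 members were higher. That count was 1 with a pseudocount of 10, without plate 1 and for the log2 ratio of mean FPKM, 0 over all wells, for the mean of within-plate differences and after centring on all genes, and 4 without plate 3. No member was lower, against 2 for the log2 ratio and 1 each for the within-plate mean and after centring. For day 2 against uncrushed, 0 were higher, against 1 without plate 1, without plate 2 or with reads thinned to 50000. The 1 lower member, H2-T23, became 0 with a pseudocount of 10, over all wells, without plate 2 or with the day 4 wells of plate 1 taken as day 2, and 2 without plate 3, for the log2 ratio or after centring. For day 4 against day 2, 2 higher members became 0 with a pseudocount of 10 or the log2 ratio. The count was 1 over all wells, with the plate 1 wells taken as day 2, for the within-plate mean or after centring, 4 in wells with 7 or more microglia markers and 5 without wells of neutrophil or rod markers; 1 was lower without plate 2. Directions turned for the log2 ratio of mean FPKM: -0.0074 for H2-K1 and -1.42 for Tapbp at day 4 against uncrushed, and -0.084 for H2-T23 at day 4 against day 2. By that ratio smaller differences turned too: H2-K1 at day 2 (-0.40), H2-D1 at day 4 (-0.34) and day 2 (-0.57), and Tap1 at day 4 against uncrushed (-0.0041) and against day 2 (-0.37). H2-K1 was also -0.22 as a within-plate mean, where the 2 plate 3 wells count as much as a whole plate. Without the uncrushed well at 3727 FPKM, the H2-K1 ratio was 0.37. Without the 2 deep plate 3 day 4 wells, an alternative chosen after the values were seen, 3 members were higher at day 4 (H2-K1 2.09, Tapbp 1.25, Tap2 1.14). No paired analysis was possible because the labels give wells of different groups no shared replicate number or animal; the plates they share gave the within-plate values above. Shallow wells limit all but B2m: 1 H2-K1 read there was worth a median of 164 FPKM, against 0.519 in deep wells.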

Other observations

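In the 56 shallow wells, which the comparisons left out, the order of the members was the same at its top. B2m had a read in 56 of 56, H2-D1 1 read or more in 52 and H2-K1 in 44. H2-T23 reached 1 read in 22 shallow wells, Tapbp in 14, Tap2 in 3, Nlrc5 in 1 and Tap1 in 0. These counts compare genes within wells of few reads and say little of a single cell's levels.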
